A study of Mus musculus with 24 samples.

Results

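The genes described here are 9 molecules by which a vessel wall captures and attracts white blood cells: the adhesion molecules Vcam1, Sele and Selp, the chemokines Ccl2, Ccl7, Ccl8, Cxcl1 and Cxcl12, and interleukin 6 (Il6). They were taken by symbol from the deposited table of 41128 genes, and all 9 were found there. They were read in total RNA of 24 mouse aortas, each sequenced as its own library, from a study of calcineurin in the vascular response to angiotensin II (AngII). Calcineurin is a phosphatase that calcium signals activate, and Ppp3cb encodes one form of its catalytic subunit. The 4 groups of 6 mice were knockout (KO) mice given AngII, KO controls, wildtype (WT) mice given AngII and WT controls, each made of 3 females and 3 males. All were 5 months old, and the knockout allele was Ppp3cbtm1Jmk on a mixed B6,129S6 background, per the design text. Implanted osmotic minipumps delivered 500 ng AngII per kg body weight each minute over 4 weeks, and whether controls were implanted too is not given in the labels. No tissue restriction of the knockout is named.

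During inflammation, endothelial cells display selectins, which slow passing leukocytes, and then Vcam1, which holds them through the integrin alpha 4 beta 1. Chemokines bound to the vessel wall direct the arrested cells into the tissue: Ccl2, Ccl7 and Ccl8 draw monocytes, Cxcl1 draws neutrophils, and Cxcl12 retains cells that carry its receptor Cxcr4. Il6 is a cytokine made by vascular and immune cells that signals through Il6st, and AngII is known to raise several of these molecules in arteries. A further adhesion molecule, Icam1, lies on chromosome 9, where every gene had 0 counts in every library, and it was treated as not measured.

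In mm10 coordinates, Vcam1 (ENSMUSG00000027962) spans chr3:116109949-116129688 on the minus strand, and the other 8 genes lie on the plus strand. The selectin genes are neighbours, with Sele (ENSMUSG00000026582) at chr1:164048234-164057677 and Selp (ENSMUSG00000026580) at chr1:164115264-164150026. The CC chemokines form a cluster, with Ccl2 (ENSMUSG00000035385) at chr11:82035571-82037453, Ccl7 (ENSMUSG00000035373) at chr11:82045712-82047525 and Ccl8 (ENSMUSG00000009185) at chr11:82115185-82116799. Cxcl1 (ENSMUSG00000029380) lies at chr5:90891241-90893115, Il6 (ENSMUSG00000025746) at chr5:30013114-30019981 and Cxcl12 (ENSMUSG00000061353) at chr6:117168535-117181367. Counts were summed over whole genes. Antisense genes share exonic bases with Selp (9.9% of its exon length with Gm16548 and 4.2% with Gm16587) and with Vcam1 (0.7% with Gm43109), and the sources used here do not give the strand setting. Gm16548 held 12 counts and Gm16587 held 44, against 967 for Selp.

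RefSeq start sites on GRCm38.p6 gave promoters for 6 of the 9 genes. The 250 bases before the start are shown for Cxcl12, the member with the highest level in these aortas, and for Il6 and Cxcl1, both at 0 in most libraries. Capitals mark the NF-kappaB consensus, the site of the transcription factor that drives many inflammatory genes, searched on both strands. All 3 sequences are read on the plus strand, from chr6:117168285-117168534 for Cxcl12, chr5:30012864-30013113 for Il6 and chr5:90890995-90891244 for Cxcl1.
Cxcl12: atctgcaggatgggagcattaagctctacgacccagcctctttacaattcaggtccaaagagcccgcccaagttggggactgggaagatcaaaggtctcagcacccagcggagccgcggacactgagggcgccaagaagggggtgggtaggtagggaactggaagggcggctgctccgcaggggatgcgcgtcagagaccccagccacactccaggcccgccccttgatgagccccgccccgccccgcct
Il6: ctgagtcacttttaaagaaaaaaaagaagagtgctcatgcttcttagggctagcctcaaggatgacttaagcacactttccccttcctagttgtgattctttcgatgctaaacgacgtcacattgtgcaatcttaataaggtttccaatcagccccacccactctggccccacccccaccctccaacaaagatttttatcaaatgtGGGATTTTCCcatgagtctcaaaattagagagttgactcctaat
Cxcl1: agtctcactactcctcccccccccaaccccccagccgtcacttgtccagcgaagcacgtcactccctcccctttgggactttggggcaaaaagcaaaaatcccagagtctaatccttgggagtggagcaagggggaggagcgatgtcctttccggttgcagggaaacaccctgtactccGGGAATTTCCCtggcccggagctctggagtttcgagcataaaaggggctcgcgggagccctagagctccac
The consensus was found 44 bases before the Il6 start and, as 2 overlapping matches, 71 and 70 bases before the Cxcl1 start, and 3.9% of 32851 promoters of this length hold it. The promoters of Cxcl12, Sele, Selp and Ccl8 have no match to it. That of Cxcl12 holds 14 CpG pairs at 64.4% G and C, against 3 at 42.8% for Il6 and 10 at 59.2% for Cxcl1. The median promoter holds 6 CpG pairs at 52.4% G and C. The element TATAAA, which overlaps no NF-kappaB match here, was found before Sele (49 bases) and Ccl8 (32 bases) and occurs in 12.4% of promoters. These matches describe the sequence alone, since no binding was measured.

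Depth was low. Library totals ran from 1523328 to 6352365 counts, 36.3% to 74.6% of them on protein-coding genes, so that 1 count was worth 0.165 to 0.637 CPM (counts scaled to a common library size by TMM). The 3 KO control female libraries stood apart: their totals were the lowest, at 1523328 to 2401264, and olfactory and vomeronasal receptor genes, which are silent in most tissues, took 1002 to 1992 CPM of their protein-coding counts, against 111 to 1073 in the other 21 libraries. Ppp3cb itself averaged 21.3 ± 6.11 CPM in KO and 41.9 ± 10.8 CPM in WT libraries (SD, n = 12 each), a log2 difference of -1.01 ± 0.16 (SE, edgeR adjusted p = 0.000177). The smooth muscle marker Myh11 and the endothelial markers Pecam1 and Vwf were present in every library (lowest 3636, 152 and 93.2 CPM), while the endothelial gene Cdh5 lies in the part of chromosome 8 that had no counts and was not measured. In bulk tissue, fewer cells of a type and less RNA per cell cannot be told apart.

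The members were compared per kilobase of exon, and every neighbouring pair in the order of medians overlapped in range. Cxcl12 had a median of 11.2 CPM per kb over the 24 libraries (range 4.36 to 23.2) and Vcam1 of 6.04 CPM per kb (range 1.81 to 13.1). Selp followed with a median of 2.04 CPM per kb (range 0.268 to 6.31). Below it, Ccl8 at 0.454, Sele at 0.374 and Ccl2 at 0.331 CPM per kb did not differ beyond their spread, each at 0 in some libraries, and Ccl8 reached 7.95 CPM per kb in 1 library. Ccl7, Cxcl1 and Il6 had medians of 0. In raw counts over all libraries, Cxcl12 had 8648, Vcam1 4631, Selp 967, Sele 133, Ccl2 86, Ccl7 70, Cxcl1 58, Ccl8 46 and Il6 10. The count filter passed 6 of the 9 members, and Ccl2, Ccl8 and Il6 fell below it.

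Vcam1, the endothelial counter-receptor of alpha 4 beta 1 integrin, passed the test as higher in KO aortas over both treatments. Vcam1 stood at 61.0, 116 and 63.0 CPM in the KO females given AngII and at 99.0, 41.3 and 38.0 CPM in the KO males given AngII. In KO controls it stood at 81.5, 65.9 and 95.9 CPM in females and at 51.0, 113 and 41.8 CPM in males. In WT mice given AngII it stood at 16.0, 60.5 and 55.9 CPM in females and at 33.8, 55.4 and 51.8 CPM in males, and in WT controls at 31.5, 32.4 and 32.2 CPM in females and at 19.8, 67.2 and 23.8 CPM in males. All 12 KO libraries lay above the WT median of 33.1 CPM and 5 lay above every WT library, but the genotypes overlapped.

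Vcam1 averaged 72.3 ± 28.1 CPM in KO aortas and 40.0 ± 17.2 CPM in WT aortas (SD, n = 12 each). Over both treatments its log2 difference, KO over WT, was 0.85 ± 0.22 (SE), with an edgeR adjusted p of 0.0483 over 16316 genes. In this comparison 1.12% of all genes tested were called higher and 1.34% in either direction, and 1 of the 6 members tested, Vcam1, was called. Point estimates lay above 0 for 5 of the 6, where 49.1% of all genes did. That of Sele, 1.24 ± 0.81, was larger than that of Vcam1 but was not called. Sele passed the count filter mainly through KO libraries, so the filter favours a value above 0 for it. Within controls the Vcam1 difference was 1.11 ± 0.32 (edgeR adjusted p = 0.164), between 74.8 ± 27.1 CPM in KO and 34.5 ± 16.8 CPM in WT (SD, n = 6 each). Under AngII it was 0.59 ± 0.32 (edgeR adjusted p = 0.708), between 69.8 ± 31.5 CPM in KO and 45.5 ± 17.2 CPM in WT (SD, n = 6 each), and it was 0.30 without KO AngII male 1. The point estimate was above 0 in both sexes within each treatment, at 0.86 ± 0.45 in AngII females, 0.33 ± 0.45 in AngII males, 1.34 ± 0.46 in control females and 0.89 ± 0.45 in control males, and none of the 4 passed alone (lowest edgeR adjusted p = 0.151, in control females). Of all genes, 0% were called in AngII females, 0.0245% in AngII males, 0.815% in control females and 0% in control males. Where none was called, 785 genes (4.81%) in AngII females and 724 (4.44%) in control males had an unadjusted p under 0.05 in edgeR, and no other tool was run within a sex.

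**Figure D1:**
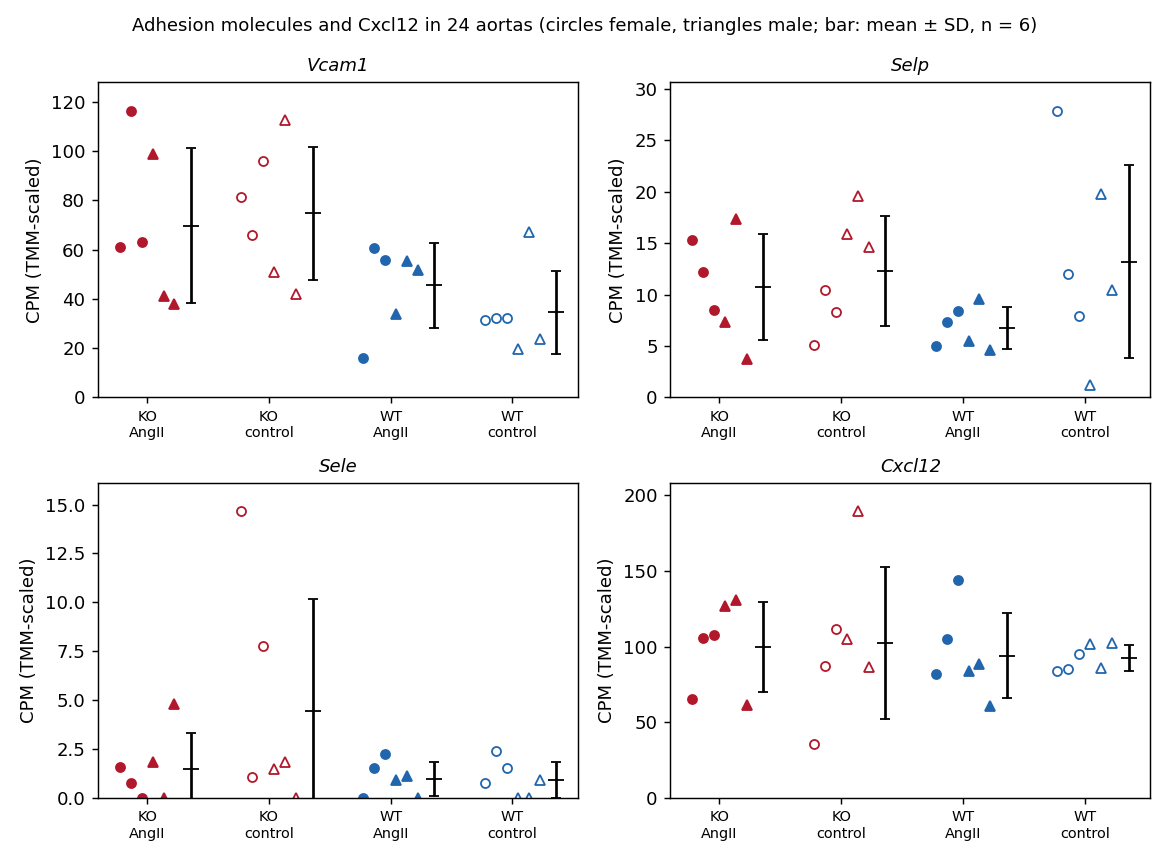
TMM-scaled CPM (vertical axis) of Vcam1, Selp, Sele and Cxcl12 in each of the 24 libraries, by group (horizontal axis); circles are females, triangles males, filled symbols AngII, and bars show the mean ± SD of 6 libraries (cut off at 0 for Sele). Vcam1 averaged 69.8 and 74.8 CPM in the KO groups against 45.5 and 34.5 CPM in the WT groups, while the Cxcl12 groups averaged 92.2 to 103 CPM.

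The Vcam1 call lay close to the threshold. It was the gene of rank 214 by p among 219 called, and it held in 8 of the 24 fits that left out 1 library, with values of 0.68 to 1.01 and edgeR adjusted p of 0.00514 to 0.142. The lowest value, 0.68 (edgeR adjusted p = 0.142), came without KO control male 2 and the highest, 1.01 (adjusted p = 0.00514), without WT control male 2. The call was lost, with an adjusted p of 0.0527 to 0.142, without any 1 of KO AngII females 2 and 3 or male 1, KO control females 1 and 3 or male 2, WT AngII females 1 and 3 or males 1, 2 and 3, and WT control females 1, 2 and 3 or males 1 and 3. Without both KO control females 1 and 3 the difference was 0.75 (edgeR adjusted p = 0.17), and with protein-coding genes alone 0.84 (edgeR adjusted p = 0.0582). It held with DESeq2 (0.92, adjusted p = 0.00931) and limma-voom (0.91, adjusted p = 0.0115).

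Markers of other cells were read beside this result. The summed level of the 11 macrophage markers measured, with none at 0 throughout, ran from 91.6 to 549 CPM (median 146) in KO and from 81.3 to 231 CPM (median 129) in WT libraries. All 11 were above 0 in log2 difference, KO over WT, over both treatments (median 0.67), and none was called. Split by treatment, 11 were above 0 in controls (median 1.37) and 6 under AngII (median 0.06). Endothelial markers summed to 668 to 1571 CPM (median 905) in KO and to 551 to 2276 CPM (median 871) in WT libraries, with 5 of 11 tested markers above 0 and none called. The highest macrophage sum was in KO control male 2, and the highest endothelial sum in WT control male 2. T and B lymphocyte markers summed to 1.95 to 34.4 CPM (median 10.5) in KO and to 0.274 to 10.1 CPM (median 5.71) in WT libraries, with Cd3e, Cd3d and Cd3g on chromosome 9 not measured, and 3 of the 4 tested were above 0 (median 1.48) with none called. The 5 neutrophil markers summed to 0 to 9.55 CPM (median 1.74) in KO and to 0 to 2.07 CPM (median 0.618) in WT libraries, with Ly6g at 0 in 22 of the 24. They were highest in the KO control females, at 3.88 to 9.55 CPM, against 0.366 to 0.912 CPM in WT control females. Of the 5, only Mpo passed the count filter, and it reached 7.64 CPM in KO controls. S100a8 and S100a9 reached at most 2.15 and 2.16 CPM in any library.

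Smooth muscle markers summed to 5449 to 16950 CPM (median 12870) in KO and to 9880 to 16880 CPM (median 13410) in WT libraries, and all 4 tested were below 0 (median -0.22) with none called. In KO control females these sums were 5449 to 8812 CPM, against 11990 to 13060 CPM in WT control females. Above 0 were 4 of 6 fibroblast, 1 of 5 adipocyte and 2 of 2 tested skeletal muscle markers, none of them called. The part of these cells, and of the KO control female libraries, in the Vcam1 result was not tested.

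**Figure D2:**
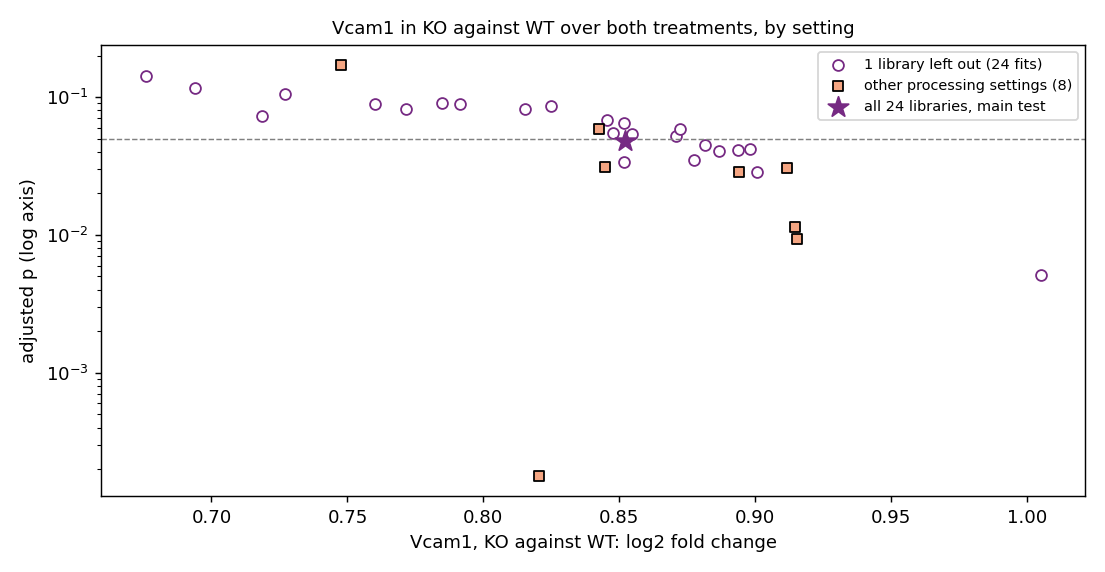
Log2 difference of Vcam1, KO over WT over both treatments (horizontal axis), against its adjusted p (vertical log axis), for the main test (star), each of 24 fits with 1 library left out (circles) and 8 other settings (squares); the dashed line is 0.05. The differences run from 0.68 to 1.01 and all lie above 0, while 16 circles and 2 squares lie above the line.

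AngII did not move Vcam1 past the threshold in either genotype. Its AngII-over-control difference was -0.12 ± 0.31 in KO (edgeR adjusted p = 0.973) and 0.40 ± 0.32 in WT (adjusted p = 0.95). The difference between these responses, KO minus WT, was -0.52 ± 0.45 (edgeR adjusted p = 1). The KO value changed sign, to 0.19, without KO control male 2. With 1 library left out, the WT value ran from 0.25 (without WT AngII female 2) to 0.77 (without WT control male 2), and the difference between the responses from -0.86 (without WT control male 2) to -0.21 (without KO control male 2). No gene at all was called for AngII in KO or for the interaction (0% of 16316), where 1258 (7.71%) and 657 (4.03%) had an unadjusted p under 0.05. By DESeq2 the calls there were 17 and 0, and by limma-voom 0 and 0.

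Selp encodes P-selectin, which endothelial cells and platelets store in granules and bring to the surface on activation. Selp ran from 3.71 to 17.4 CPM (median 10.3) in KO mice given AngII and from 5.10 to 19.6 CPM (median 12.5) in KO controls. In WT mice it ran from 4.60 to 9.59 CPM (median 6.45) under AngII and from 1.18 to 27.8 CPM (median 11.2) in controls, where both the highest and the lowest library of the series lay. Its AngII-over-control difference in WT was -0.93 ± 0.45 (edgeR adjusted p = 0.743), in a comparison in which 0.208% of genes were called. In KO that difference was -0.11 ± 0.45, and KO over WT it was 0.67 ± 0.45 under AngII and -0.15 ± 0.45 in controls, none of them called. Of 11 tested endothelial markers, 9 were below 0 for AngII in WT (median -0.64) and 9 in KO (median -0.37), with none called. Their part in the Selp values was not tested. WT control male 2, where Selp was at 19.8 CPM, also had the highest sum of endothelial markers. Without that library the difference in WT was -0.52 (edgeR adjusted p = 1) and the KO-over-WT difference in controls was 0.21. The KO-over-WT difference under AngII was 0.25 without KO AngII male 2 and ran up to 0.84 with 1 library left out.

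Sele encodes E-selectin, which is made by endothelial cells after cytokine stimulation. Sele had counts in 17 of 24 libraries, from 0 to 4.81 CPM (median 1.16) in KO mice given AngII and from 0 to 14.7 CPM (median 1.65) in KO controls. In WT mice it ran from 0 to 2.22 CPM (median 1.01) under AngII and from 0 to 2.39 CPM (median 0.832) in controls. The highest values in the series were in KO control females 1 and 3, with 23 and 14 counts, both among the libraries that stood apart. Sele passed the count filter mainly through these libraries and KO AngII male 3 (22 counts). Its KO-over-WT differences are therefore favoured by the filter and give no support for a change. The KO-over-WT difference was 1.98 ± 1.16 in controls (edgeR adjusted p = 0.599), where 0.221% of genes were called, and 1.24 ± 0.81 over both treatments (adjusted p = 0.566). Without KO control females 1 and 3 these values were 0.54 and 0.43, and without WT control male 3 they were 3.595 and 2.04.

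Cxcl12, also called SDF-1, is a constitutively made chemokine of stromal and vascular cells. It had counts in every library and ran from 61.6 to 131 CPM (median 107) in KO mice given AngII and from 35.7 to 189 CPM (median 96.2) in KO controls. In WT mice it ran from 61.0 to 144 CPM (median 86.2) under AngII and from 83.5 to 102 CPM (median 90.2) in controls, the narrowest of the 4 groups. Both extremes of the series lay in KO controls, at 35.7 CPM in female 1 and 189 CPM in male 2. The log2 difference, KO over WT over both treatments, was 0.11 ± 0.17 (edgeR adjusted p = 0.867), and it was -0.03 without KO control male 2. AngII over control gave -0.01 ± 0.24 in KO and 0.01 ± 0.24 in WT, with edgeR adjusted p of 1 in both. Changes of several SE could go uncalled here, as that of Vcam1 in controls (1.11 ± 0.32) did.

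**Figure D3:**
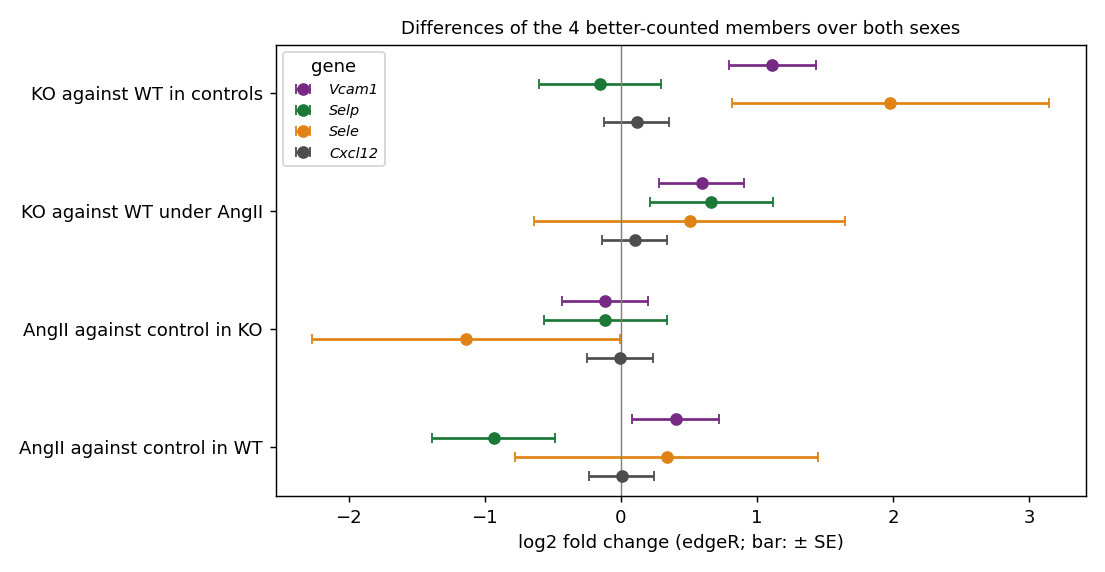
Log2 differences (horizontal axis, edgeR, bars ± SE) of Vcam1, Selp, Sele and Cxcl12 in 4 comparisons over both sexes. Vcam1 lies above 0 in both KO-against-WT comparisons (1.11 and 0.59), Selp is lowest for AngII in WT (-0.93), Sele has the widest bars and Cxcl12 lies near 0 throughout.

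Ccl2 and Ccl7 encode the monocyte chemoattractants MCP-1 and MCP-3, which act on the receptor Ccr2. Ccl7 had 0 counts in all 6 KO mice given AngII. In KO controls it had 7, 0 and 9 counts in females and 4, 28 and 0 in males. In WT mice given AngII it had 5, 0 and 1 counts in females and 1, 1 and 3 in males, and in WT controls 0, 3 and 0 in females and 0, 8 and 0 in males. The groups overlapped, since 2 KO controls and 1 WT mouse given AngII were also at 0.

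With a floor of 3 counts over the group, 0.129 CPM, Ccl7 was at least 19.9-fold lower in KO mice given AngII than in KO controls, which pooled to 2.56 CPM. It was at least 3.81-fold lower than in WT mice given AngII, which pooled to 0.492 CPM. These bounds take the pooled value of the other group as exact. They leave out its counting error and its spread between mice. Neither difference was called (edgeR adjusted p = 0.298 and 0.523), and the interaction had an adjusted p of 1. Ccl7 passed the count filter only through KO control females 1 and 3 and male 2. Comparisons with KO controls are therefore favoured by the filter and give no support for a change. KO control male 2 held 58.3% of the Ccl7 counts of its group, and without it the first bound was 10.8-fold (edgeR adjusted p = 0.559). WT AngII female 1 held 45.5% of its group's counts, and without it the second bound was 2.53-fold. KO over WT in controls, 48 counts stood against 11 (edgeR adjusted p = 0.537). Under AngII 0.355% of all genes were called between KO and WT.

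Ccl2 had 4, 0 and 0 counts in KO AngII females and 4, 0 and 7 in KO AngII males, and 3, 4 and 0 in KO control females and 11, 26 and 0 in KO control males. It had 0, 4 and 11 counts in WT AngII females and 5, 0 and 1 in WT AngII males, and 0, 1 and 0 in WT control females and 3, 0 and 2 in WT control males. Pooled over 6 libraries this was 0.644 CPM in KO mice given AngII (95% exact Poisson interval 0.361 to 1.06), 2.35 CPM in KO controls (1.71 to 3.15), 0.938 CPM in WT mice given AngII (0.581 to 1.43) and 0.266 CPM in WT controls (0.0977 to 0.579). These intervals cover counting error only, and each of the 4 groups had 2 or 3 libraries at 0. In the edgeR fit without a count filter, over 31774 genes, the smallest adjusted p of Ccl2 was 0.527, for KO against WT in controls. KO control male 2 held 26 of the 44 counts of its group, which left 18 without it.

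**Figure D4:**
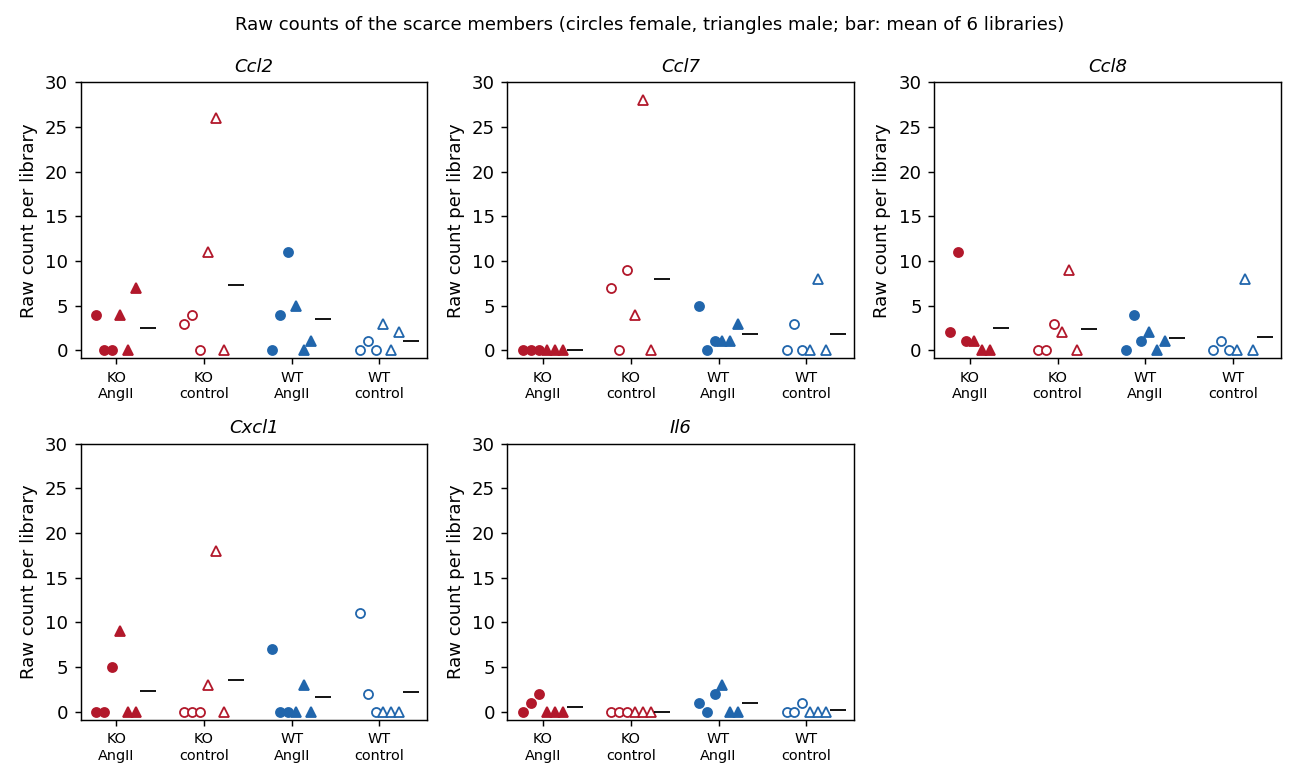
Raw counts per library (vertical axis) of Ccl2, Ccl7, Ccl8, Cxcl1 and Il6 by group (horizontal axis); circles are females, triangles males, filled symbols AngII, and the dash is the mean of 6 libraries. Ccl7 is at 0 in all 6 KO libraries given AngII, and KO control male 2 is the highest library for Ccl2 (26), Ccl7 (28) and Cxcl1 (18).

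Ccl8 encodes MCP-2, a further CC chemokine of the same cluster. Ccl8 summed to 15 counts in KO mice given AngII, 14 in KO controls, 8 in WT mice given AngII and 9 in WT controls. Single libraries held most of these: KO AngII female 2 held 11 of 15, KO control male 2 held 9 of 14 and WT control male 2 held 8 of 9. Without those 3 libraries the sums were 4, 5 and 1. In the fit without a count filter every edgeR adjusted p of Ccl8 was 0.9999.

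Cxcl1, the neutrophil chemoattractant also known as KC, had counts in 8 of 24 libraries. Its groups summed to 14 in KO mice given AngII, 21 in KO controls, 10 in WT mice given AngII and 13 in WT controls. One library held most of each sum: KO AngII male 1 with 9, KO control male 2 with 18, WT AngII female 1 with 7 and WT control female 1 with 11. The smallest edgeR adjusted p of Cxcl1 was 0.692, for the KO difference in females minus that in males.

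Il6 was at the edge of detection, with 10 counts in 6 of 24 libraries. It had 3 counts in KO mice given AngII, 0 in KO controls, 6 in WT mice given AngII and 1 in WT controls. A sum of 0 over the KO controls allows up to 0.16 CPM at a floor of 3 counts. Of the 10 counts, 9 came from mice given AngII, and every edgeR adjusted p of Il6 was 0.9999.

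KO control male 2 was the highest of the 24 libraries in CPM for 4 members, Ccl2, Ccl7, Cxcl1 and Cxcl12, and KO AngII female 2 for 2 members, Vcam1 and Ccl8. The remaining members peaked in KO control female 1 (Sele), WT AngII male 1 (Il6) and WT control female 1 (Selp). Macrophage markers summed to 549 CPM in KO control male 2, against 81.3 to 308 CPM in the other 23 libraries.

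The AngII comparison over both genotypes called 0.656% of all genes and no member. Among the members Ccl7, tested only because of its counts in KO controls, had the smallest edgeR adjusted p there, 0.241. Vcam1 stood at 0.14 ± 0.22 and Selp at -0.52 ± 0.32, and 9 of 11 tested endothelial markers were below 0 (median -0.55). With 1 library left out, Vcam1 there ran from 0.0092 (without KO AngII male 1) to 0.34 (without WT control male 2) and Selp from -0.72 (without KO AngII male 2) to -0.31 (without WT control male 2). No difference between the sexes passed the test: for the AngII response and for the KO difference, females minus males, 0% of genes were called. Unadjusted p-values under 0.05 numbered 739 (4.53%) and 1069 (6.55%), while calls by DESeq2 numbered 5 and 2 and calls by limma-voom 0 and 0. Among the members Cxcl12 stood at 0.57 ± 0.34 for the AngII response and at -0.63 ± 0.34 for the KO difference.

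Related genes were read in the same fits. Of 17 other adhesion molecules, 4 were not measured and 11 were tested, and none was called in any comparison. KO over WT over both treatments, 8 of the 11 were above 0 (median 0.44, against -0.01 over all genes). Split by treatment, 9 were above 0 in controls (median 0.71) and 9 under AngII (median 0.15). Over both treatments Itga4, the alpha 4 chain that binds Vcam1, had a difference of 0.73 ± 0.24 (edgeR adjusted p = 0.123). Itgb2, the beta chain of leukocyte integrins, stood at 1.07 ± 0.42 (adjusted p = 0.232) and its partner Itgam at 0.74 ± 0.37 (adjusted p = 0.407). For AngII over both genotypes, 4 of the 11 were above 0 (median -0.01), with the junctional molecule F11r lowest in p at -0.52 ± 0.23 (edgeR adjusted p = 0.405).

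Of 19 other chemokine ligands 14 were tested, and none was called in any comparison. All 14 had point estimates above 0 for KO over WT over both treatments (median 0.73), where 49.1% of all genes did. Split by treatment, 13 were above 0 in controls (median 1.26) and 11 under AngII (median 0.21). Over both treatments Cxcl9, an interferon-induced T cell chemoattractant, had the largest difference of the 3 named, 2.72 ± 0.75 (edgeR adjusted p = 0.0638). Its means were 5.68 ± 7.61 CPM in KO mice given AngII, 9.38 ± 7.61 in KO controls, 1.63 ± 1.73 in WT mice given AngII and 0.774 ± 1.26 in WT controls (SD, n = 6 each). Ccl9, a macrophage chemokine, stood at 1.03 ± 0.40 (edgeR adjusted p = 0.24) and the eosinophil chemoattractant Ccl11 at 0.59 ± 0.24 (adjusted p = 0.255).

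For AngII over both genotypes Ccl11 stood at -0.89 ± 0.24 (edgeR adjusted p = 0.0821), with 9.63 ± 2.995 CPM in KO mice given AngII against 25.0 ± 12.1 CPM in KO controls, and 8.80 ± 3.59 CPM in WT mice given AngII against 12.4 ± 4.87 CPM in WT controls (SD, n = 6 each). The membrane-bound chemokine Cx3cl1 stood at 0.77 ± 0.27 (edgeR adjusted p = 0.236). Its means were 11.4 ± 4.35 CPM in KO mice given AngII, 10.0 ± 6.36 in KO controls, 12.3 ± 4.01 in WT mice given AngII and 5.64 ± 1.46 in WT controls (SD, n = 6 each). Of these 14 ligands 5 were above 0 for AngII (median -0.20).

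Most chemokine receptors could not be read: 8 of 13, among them the Ccl2 receptor Ccr2, had 0 counts in every library and were not measured, and 3 fell below the filter. The 2 tested both bind Cxcl12. Cxcr4 averaged 3.37 ± 1.25 CPM in KO mice given AngII and 2.54 ± 4.29 in KO controls, and 0.915 ± 0.757 in WT mice given AngII and 3.23 ± 3.53 in WT controls (SD, n = 6 each). Its interaction was 3.71 ± 1.30 (edgeR adjusted p = 1). The scavenging receptor Ackr3 stood at -0.49 ± 0.19 for KO over WT over both treatments (edgeR adjusted p = 0.235).

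None of the 10 interleukin 6 pathway genes tested, of 13 listed, was called. Il6st, the shared signalling receptor, averaged 405 ± 56.8 CPM in KO mice given AngII and 420 ± 42.8 in KO controls, and 383 ± 38.1 in WT mice given AngII and 490 ± 229 in WT controls (SD, n = 6 each). Socs3, a feedback inhibitor induced by Il6 signalling, stood at 0.76 ± 0.51 for KO over WT over both treatments (edgeR adjusted p = 0.586). Of 18 genes of NF-kappaB and its inducers 15 were tested, 6 of them above 0 in that comparison (median -0.04), and none was called. The inducer Il1b had the smallest edgeR adjusted p of them, 0.0852, at 3.68 ± 1.08. It passed the count filter only through KO libraries, with at most 1.18 CPM in any WT library against up to 10.5 CPM in KO controls. Its value is therefore favoured by the filter and gives no support for a change. It averaged 1.28 ± 1.12 CPM in KO mice given AngII and 3.84 ± 4.74 in KO controls, and 0.168 ± 0.307 in WT mice given AngII and 0.258 ± 0.476 in WT controls (SD, n = 6 each).

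Correlations between members were low across the libraries. Sele, Ccl7 and Cxcl1 had counts in only 17, 11 and 8 of the 24 libraries. A low r for their pairs therefore cannot show that a shared pattern is absent. Over the 24 libraries, Pearson's r of log2 CPM between pairs of the 6 tested members ran from -0.24 (Sele and Cxcl12) to 0.40 (Sele and Ccl7), and between Vcam1 and Cxcl12 it was 0.18. Among 7502 well-counted genes the 3 with the pattern most like Vcam1 were Fkbp7 (r = 0.77), Ifit3 (0.72) and Gbp3 (0.69). Those most like Selp were P2rx7 (r = 0.72), St6galnac2 (0.69) and Rai14 (0.67). Those most like Cxcl12 were Psme2b (r = 0.84), Marcks (0.78) and Hcls1 (0.76). These correlations are descriptions over libraries that share groups and differ in depth.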

How the data were processed

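Total RNA from 24 aortas was depleted of ribosomal RNA and sequenced, per the labels. The deposited values are raw counts per gene. The submitters' processing notes list the genome build mm10, featureCounts 1.4.6, TopHat2 2.0.14 with Bowtie2 2.2.5, and cutadapt 1.8.1, with settings and strandedness not given in the sources used here. Coordinates and exon lengths came from GENCODE M21, which matched 40254 of 41128 identifiers. Every library had 0 counts for 6547 genes, those of chromosomes 9, MT, X and Y and of the end of chromosome 8 (starts after 97565603), which were treated as not measured.

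The filterByExpr function, with a minimum count of 10 and a minimum total of 15, left 16316 genes. edgeR 4.0.16 in R 4.3.3 (limma 3.58.1) fitted a single quasi-likelihood model with 8 coefficients (genotype, treatment and sex, 3 mice each) to TMM-scaled counts. A trial on simulated data changed only better-counted genes, for AngII in WT alone. It does not cover the scarce members or the KO contrasts. Contrasts over both sexes weight them equally. Tests were two-sided, adjusted by Benjamini and Hochberg over all genes, with a call under 0.05. log2 CPM used a prior count of 2. Members below the filter were tested in a fit without it. The labels do not say whether replicates differ in litter or day. The p-values weigh a difference against the variation left between libraries of the same group, each from its own mouse.

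All members are named. Of each related list, the genes of smallest p are given as values. Genes with the pattern most like a member were sought for members averaging at least 3 log2 CPM. The members and lists were chosen with earlier results of these data known. Alternatives were DESeq2 1.42.0, RLE factors, no filter, limma-voom, a replicate block and leaving out libraries. All limma-voom values used quality weights per library. Chosen after seeing the data were the bias-adjusted edgeR test and protein-coding genes only. Between libraries of a group the chi-square per degree of freedom was 6.66 to 97.3, so none was a copy of another.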

Additional observations from a re-analysis of the deposited data

Results flagged for a closer look

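Over the 36 combinations of member and group of 6 libraries, 7 had 1 library far from the other 5. Chance marks about 1 in 20 groups of normally spread values. That rate does not hold for Ccl7, Ccl8, Cxcl1 and Il6, where most libraries of a group are at or near 0 and 1 library with counts is marked readily. Library WT control male 2 accounted for 3 of them: Vcam1 was at 67.2 CPM there against 32.4 CPM in the next library, Ccl7 at 1.89 CPM against 0.652 CPM, and Ccl8 at 1.89 CPM against 0.217 CPM. The endothelial marker sum of that library, 2276 CPM, was the highest of the series, and its macrophage marker sum was 87.0 CPM. Ccl8 was at 4.06 CPM in KO AngII female 2, against 0.528 CPM in the next library. Cxcl1 was at 4.11 CPM in KO control male 2, against 0.733 CPM, and at 4.03 CPM in WT control female 1, against 0.435 CPM. Il6 was at 0.304 CPM, a single count, in WT control female 3, with 0 in the other 5 WT controls.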

How the results depend on the processing

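For the 6 tested members, 303 of the values under 8 other settings kept their direction and side of the threshold, 24 changed sign, 2 gained a call and 2 lost it, and the causes were not tested. Vcam1 in KO over WT over both treatments lost its call without KO control females 1 and 3 and with protein-coding genes only (values in the report); in controls it gained one with DESeq2 (1.18, adjusted p = 0.0456), without the count filter (1.07, adjusted p = 0.00219) and without WT control male 2 (1.44, adjusted p = 0.0278). With 1 library left out at a time, Vcam1 ranged from 0.68 to 1.01 over both treatments, from 0.78 to 1.44 in controls and, for AngII in KO, from -0.39 to 0.19. Vcam1 for AngII in KO was 0.013 with limma-voom and 0.043 without KO control females 1 and 3.

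Without those 2 libraries Sele was at 0.28 for AngII in KO and at 0.31 for AngII over both genotypes, and limma-voom put it at -0.37 for KO over WT under AngII. Leaving out 1 library moved Sele from -0.0084 to 2.01 for AngII in WT, from -0.20 to 0.83 for KO over WT under AngII and from -0.72 to 0.46 for AngII over both genotypes. Selp in KO over WT controls was 0.13 with limma-voom and ranged from -0.42 to 0.21 with 1 library left out, and from -0.52 to 0.091 for AngII in KO.

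Cxcl12 lay near 0 and changed sign most. For AngII in WT it was -0.040 with DESeq2, -0.040 with RLE factors, -0.0044 with the replicate block and -0.0054 with protein-coding genes only. For AngII in KO it was 0.016 without the filter and 0.020 with the replicate block, and for the interaction 0.024 with the replicate block and 0.00060 with protein-coding genes only. For AngII over both genotypes it was -0.047 with DESeq2, -0.048 with RLE factors, -0.032 without KO control females 1 and 3, -0.0018 with the bias-adjusted edgeR test and -0.0051 with protein-coding genes only. With 1 library left out, Cxcl12 ranged from -0.12 to 0.090 for AngII in WT, from -0.17 to 0.22 in KO, from -0.18 to 0.22 for the interaction and from -0.081 to 0.11 over both genotypes. KO over WT it ranged from -0.14 to 0.28 in controls, from -0.0088 to 0.22 under AngII and from -0.030 to 0.19 over both treatments.

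The fitted sign of Ccl7 changed for KO over WT in controls without KO control females 1 and 3 (adjusted p = 0.989) and over both treatments with limma-voom (adjusted p = 0.785). That of Cxcl1 changed with limma-voom for AngII in WT (adjusted p = 0.809), in KO (0.986) and over both genotypes (0.857). With 1 library left out, some signs of these scarce genes changed too. The adjusted p of Ccl7 then ran from 0.988 to 1 for AngII in WT and from 0.589 to 0.9999 for KO over WT over both treatments. The adjusted p of Cxcl1 ran from 0.919 to 1 for AngII in WT, from 0.767 to 0.9999 in KO, from 0.771 to 1 for KO over WT under AngII, from 0.9999 to 1 in controls, and from 0.9998 to 1 for the interaction and over both treatments.

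Over all genes, the 34 calls for AngII in WT were 80 with DESeq2, 134 without the filter, 329 with limma-voom, 68 without KO control females 1 and 3 and 55 with the bias-adjusted edgeR test, and 5 to 86 with 1 library left out. For AngII in KO the 0 calls were 17 with DESeq2, 85 without the filter and 0 to 113 with 1 library left out. For KO over WT in controls the 36 calls were 183, 260, 3 without KO control females 1 and 3, 94 with the bias-adjusted test and 13 to 399. Under AngII the 58 calls were 152, 182, 200 with limma-voom, 102 with the bias-adjusted test and 35 to 72. For the interaction the 0 calls were 12 without the filter and 0 to 2. For AngII over both genotypes the 107 calls were 215, 276, 196 with limma-voom and 59 to 264. For KO over WT over both treatments the 219 calls were 486, 559, 373 with limma-voom, 131 without KO control females 1 and 3, 344 with the bias-adjusted test and 171 to 624. For the sex difference in the AngII response the 0 calls were 5, 7 and 0 to 2, and in the KO difference 2, 24, 2 without KO control females 1 and 3 and 0 to 4.

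Replicate numbers showed no pairing of the mice over the tested genes as a whole. Over 84 pairs of same-numbered libraries of different groups, r of their deviations was -0.10 to 0.13 (median 0.0029), with 2 over 0.1. Pairing that touches few genes or few groups could be missed by this check. A replicate block gave 24 calls for AngII in WT, 30 for KO over WT in controls, 52 under AngII, 82 for AngII over both genotypes and 178 for KO over WT over both treatments. It put Vcam1 at 0.89 (adjusted p = 0.0284) in that last comparison and changed no call of a member. Depth limits what can be said of Ccl2, Ccl7, Ccl8, Cxcl1 and Il6: 1 count is worth up to 0.637 CPM, and differences of a few counts between groups were not detectable.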
